A study of Mus musculus with 12 samples.

Results

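The epidermal growth factor (EGF) receptor family was followed in regenerating muscle of mice treated with amphiregulin (AREG), itself a ligand of one of these receptors. The genes were the 4 receptors Egfr, Erbb2, Erbb3 and Erbb4, the ligand genes Hbegf, Ereg, Btc, Tgfa and Epgn, and Errfi1, an intracellular inhibitor of the receptors. Members had to be measured by a transcript cluster, a group of probes read as 1 value, whose only gene symbol was theirs. All 10 listed genes met this with 1 cluster each, of 19752 genes measured in the same way. Areg itself had 0 clusters of its own and was not analysed here.

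Expression was measured on Affymetrix Mouse Gene 1.0 ST arrays in the whole tibialis anterior (TA), a lower leg muscle, from C57BL/6 mice aged 8 weeks. Cardiotoxin, a component of snake venom that destroys fibres and so sets off their regeneration, had been injected into every muscle, and every mouse had been given diphtheria toxin on alternate days from the injury until dissection. The 12 arrays formed 4 groups of 3: Foxp3-DTR+ mice given AREG, at day 8; Foxp3-DTR+ mice given phosphate-buffered saline (PBS), at day 8; Foxp3-DTR- mice given AREG, at day 4; and Foxp3-DTR- mice given PBS, at day 4. AREG or PBS was injected into the muscle on the day of injury and into the abdominal cavity on alternate days after it. In Foxp3-DTR+ mice the diphtheria toxin receptor is made in cells that use the Foxp3 gene, which marks regulatory T (Treg) cells, so that the toxin is meant to remove these cells; the toxin was also given to the Foxp3-DTR- mice, which keep them. The groups analysed here hold no day 8 muscle without the receptor, no day 4 muscle with it and no uninjured or toxin-free muscle, so day, genotype and any difference in handling between the days cannot be told apart. Separate animals per array are not stated, and p-values therefore measure the spread between samples, which may be technical.

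EGF-family ligands are made as membrane-anchored precursors, are cut loose by proteases of the ADAM family, and bind receptors that pair with each other and phosphorylate their own tails. EGFR binds AREG, TGF-alpha, epigen and EGF; ERBB4 binds neuregulins; HB-EGF, betacellulin and epiregulin bind both. ERBB3 binds neuregulins but has little kinase activity of its own, and ERBB2 has no known ligand, so that these receptors act mainly as partners. In muscle, neuregulin signalling through ERBB receptors is known from developing fibres, from Schwann cells and from the nerve-muscle synapse.

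The arrays were alike in overall brightness, with median intensities of 134 to 143. AREG replicate 1 of day 4 had the narrowest spread of log2 values (interquartile range 2.19) and the largest mean residual (0.191), AREG replicate 3 of day 8 had the next largest residual (0.159), and PBS replicate 1 of day 4 had the next narrowest spread (2.37). The 10 genes of a mature fibre list had mean log2 intensities of 13.1 to 13.3 on every array. All 10 were higher on average with AREG than with PBS at day 4. Their median log2 change was 0.14, beside 0.04 over all genes. In 6 of them these arrays did not overlap, against 22.3% of all genes in either direction, and 0 passed the test used below. Foxp3 was flat over the groups, with mean log2 intensities of 6.66 in day 8 Foxp3-DTR+ AREG muscle, 6.55 in day 8 Foxp3-DTR+ PBS muscle, 6.60 in day 4 Foxp3-DTR- AREG muscle and 6.57 in day 4 Foxp3-DTR- PBS muscle, so that the depletion could not be read from this transcript. Of 8 Treg cell markers, 3 (Il2ra, Ctla4 and Icos, which other activated T cells also use) were higher in day 8 Foxp3-DTR+ PBS muscle than in day 4 Foxp3-DTR- PBS muscle, where 1.19% of all genes were, and 0 were lower.

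The promoters shown are those of Egfr, the receptor that AREG binds, and of Erbb2, whose values over the arrays ran closest to those of Erbb3 among the other 9 genes. Erbb3 itself had no promoter entry in the reference used, so its own promoter is not shown. They are the 250 bases upstream of the RefSeq start on assembly GRCm38.p6, both on the plus strand, Egfr at chr11:16751953-16752202 and Erbb2 at chr11:98412234-98412483, and capitals mark a GC box (GGGCGG or CCGCCC) in Egfr and an E-box (CANNTG, the letters that myogenic factors such as MyoD recognise) in Erbb2.
Egfr promoter: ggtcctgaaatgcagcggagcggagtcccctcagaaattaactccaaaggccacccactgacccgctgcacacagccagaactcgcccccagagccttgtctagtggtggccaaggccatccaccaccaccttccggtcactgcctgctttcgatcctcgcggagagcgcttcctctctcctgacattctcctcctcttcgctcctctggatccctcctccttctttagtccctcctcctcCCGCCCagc
Erbb2 promoter: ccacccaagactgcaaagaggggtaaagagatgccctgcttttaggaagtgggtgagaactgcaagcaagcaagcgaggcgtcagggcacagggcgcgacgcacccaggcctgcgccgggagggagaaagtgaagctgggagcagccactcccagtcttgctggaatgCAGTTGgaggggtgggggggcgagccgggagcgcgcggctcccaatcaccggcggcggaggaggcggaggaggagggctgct

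The Egfr window held 1 GC box and 0 E-boxes, and its GC content was 60.8%. The Erbb2 window held 1 E-box and 0 GC boxes, and its GC content was 66.0%. Both strands were searched, and among 32851 RefSeq promoter windows of the same length 32.7% held a GC box and 66.2% an E-box. Neither window held a TATA box (TATAAA or TTTATA, in 12.4% of windows) or an AP-1 site (TGANTCA, in 6.75%), the site of a factor that acts downstream of EGFR signalling. GC boxes and E-boxes overlapped at 0 positions in these windows. A match describes the letters and not a bound site. In the same RefSeq assembly Epgn, Ereg, Areg and Btc follow each other on chromosome 5 with no other protein-coding gene between them.

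Only Erbb3 changed beyond the test's threshold among the 10 genes, and it did so in 2 comparisons. It fell with AREG at day 4, and it was lower in PBS muscle at day 8 in Foxp3-DTR+ mice than at day 4 in Foxp3-DTR- mice. The receptor AREG binds, Egfr, was lower on average with AREG at both days without passing the test, and at day 8 the difference rested largely on 1 array. Neither a ligand gene nor Errfi1 passed in any of the 6 comparisons made. A gene was called when its limma p-value, adjusted by the Benjamini-Hochberg method over all 19752 genes, was under 0.05.

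For AREG against PBS at day 4 in Foxp3-DTR- mice, 1 of the 10 genes was called, against 2.90% of all genes (2.11% lower and 0.790% higher), and 2 had an unadjusted p under 0.05, against 17.0% of all genes. With the replicate number as a block, the calls over all genes rose to 914, against 573 without it, and Erbb3 remained the 1 member called. Without the day 4 arrays numbered 1 of both groups, an alternative chosen after seeing the data, 0 of all genes were called in limma. For AREG against PBS at day 8 in Foxp3-DTR+ mice 0 of the 10 were called in limma, against 0.00506% of all genes, and 0 had an unadjusted p under 0.05, against 7.62% of all genes. The mean of both AREG effects called 0 of the 10 in limma, against 3.41% of all genes, and 2 had an unadjusted p under 0.05, against 18.0% of all genes. With 10 genes, 1 call is the smallest share above 0 that can be seen, and these counts say nothing of the family as a whole.

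The median log2 change of the 10 genes with AREG was -0.05 at day 4 and 0.00 at day 8, beside 0.04 and 0.01 over all genes. By sign, 5 of the 10 were lower with AREG at day 4 and 5 were lower at day 8. Each SE was between 0.11 and 0.18 on the log2 scale for a comparison of 2 groups, and 3 arrays a group limit the precision to about that.

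**Figure D1:**
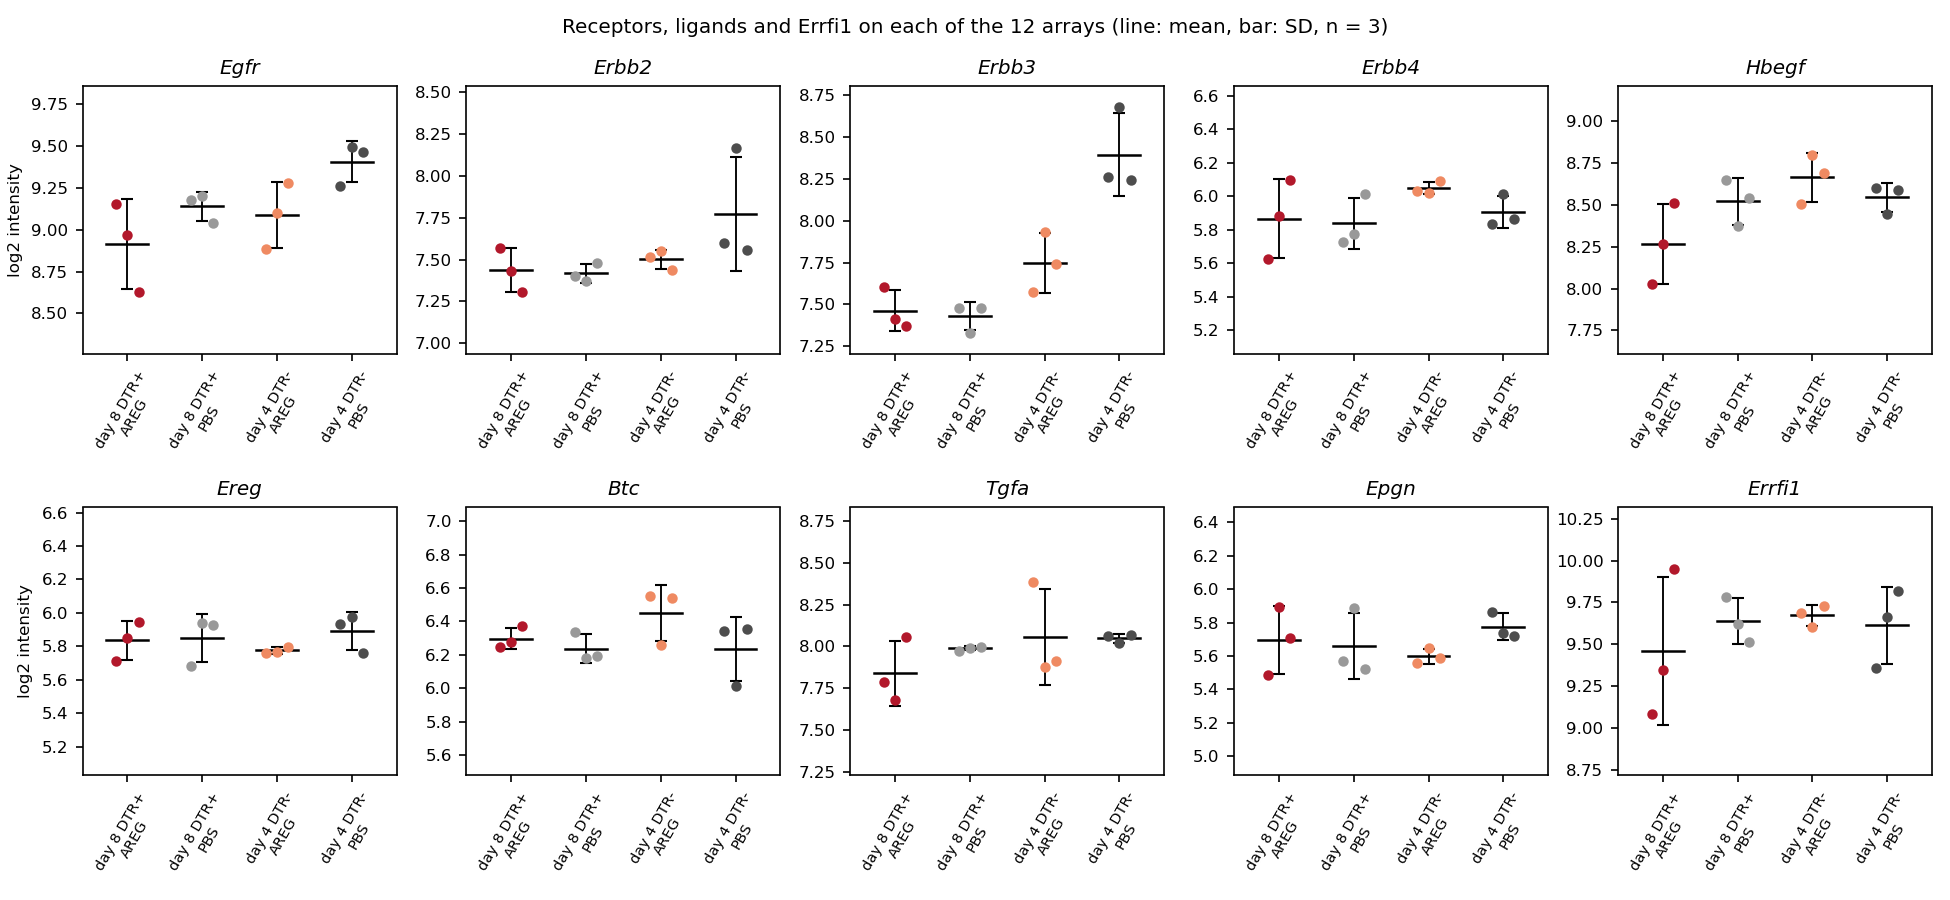
Log2 intensity (vertical axis) of the 10 genes on the 12 arrays, by group (horizontal axis); points are arrays, the line is the group mean and the bar its SD (n = 3), and every panel spans the same height in log2 units. The 3 day 4 PBS arrays of Erbb3, at 8.24 to 8.68, lie above all other arrays of that gene.

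Erbb3, the kinase-poor partner that binds neuregulins, had log2 intensities of 7.57, 7.93 and 7.74 in day 4 AREG muscle, against 8.26, 8.68 and 8.24 in day 4 PBS muscle. The groups did not overlap. Log2 expression fell by 0.65 ± 0.14 (SE of the fit, n = 3 per group, 95% interval -0.94 to -0.35), 1.57-fold lower, with an adjusted p of 0.0297 in limma. It ranked 175 of 19752 genes by p-value. In whole muscle, fewer cells of a type and less RNA per cell cannot be told apart. The call ended without AREG replicate 1 (adjusted p = 0.0805), without AREG replicate 3 (adjusted p = 0.102) or without PBS replicate 2 of day 4 (adjusted p = 0.198), and the change stayed between -0.74 and -0.50 whichever array was left out.

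At day 8 in Foxp3-DTR+ mice Erbb3 did not pass the test. Its log2 intensities were 7.60, 7.41 and 7.37 in AREG muscle, against 7.48, 7.33 and 7.48 in PBS muscle. The groups overlapped, and the difference was 0.03 ± 0.14 (95% interval -0.26 to 0.33, adjusted p = 0.968, limma). The AREG effect at day 8 minus that at day 4 was 0.68 ± 0.19 (95% interval 0.27 to 1.09), with an unadjusted p of 0.00317 and an adjusted p of 0.602 in limma, so the difference between the settings was not called. In that test 0 of the 10 genes were called in limma, against 0% of all genes, and 1, Erbb3, had an unadjusted p under 0.05, against 5.87% of all genes. The mean of both effects was -0.31 ± 0.10 with an adjusted p of 0.0935, and with the replicate number as a block it passed (adjusted p = 0.0385, limma).

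Between the PBS groups, Erbb3 was lower at day 8 in Foxp3-DTR+ mice, at 7.43 ± 0.08, than at day 4 in Foxp3-DTR- mice, at 8.40 ± 0.25 (mean ± SD, n = 3). No array of the day 8 group reached the day 4 range. The change was -0.97 ± 0.14 (SE, 95% interval -1.26 to -0.67), 1.95-fold lower, with an adjusted p of 0.00108 in limma. Here 1 of the 10 genes was called, against 2.34% of all genes (1.15% lower), and 2, Erbb3 and Erbb2, had an unadjusted p under 0.05, against 13.1% of all genes. This comparison and that of AREG at day 4 use the same 3 day 4 PBS arrays, so that a high value of those arrays enters both. Between the AREG groups, day 8 Foxp3-DTR+ against day 4 Foxp3-DTR- muscle, the change was -0.29 ± 0.14 (adjusted p = 0.498), and those arrays overlapped.

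From high to low, the group means of Erbb3 ran from day 4 PBS (8.40) to day 4 AREG (7.75), day 8 AREG (7.46) and day 8 PBS (7.43). The first step was called. The second and the third were not, and their arrays overlapped.

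**Figure D2:**
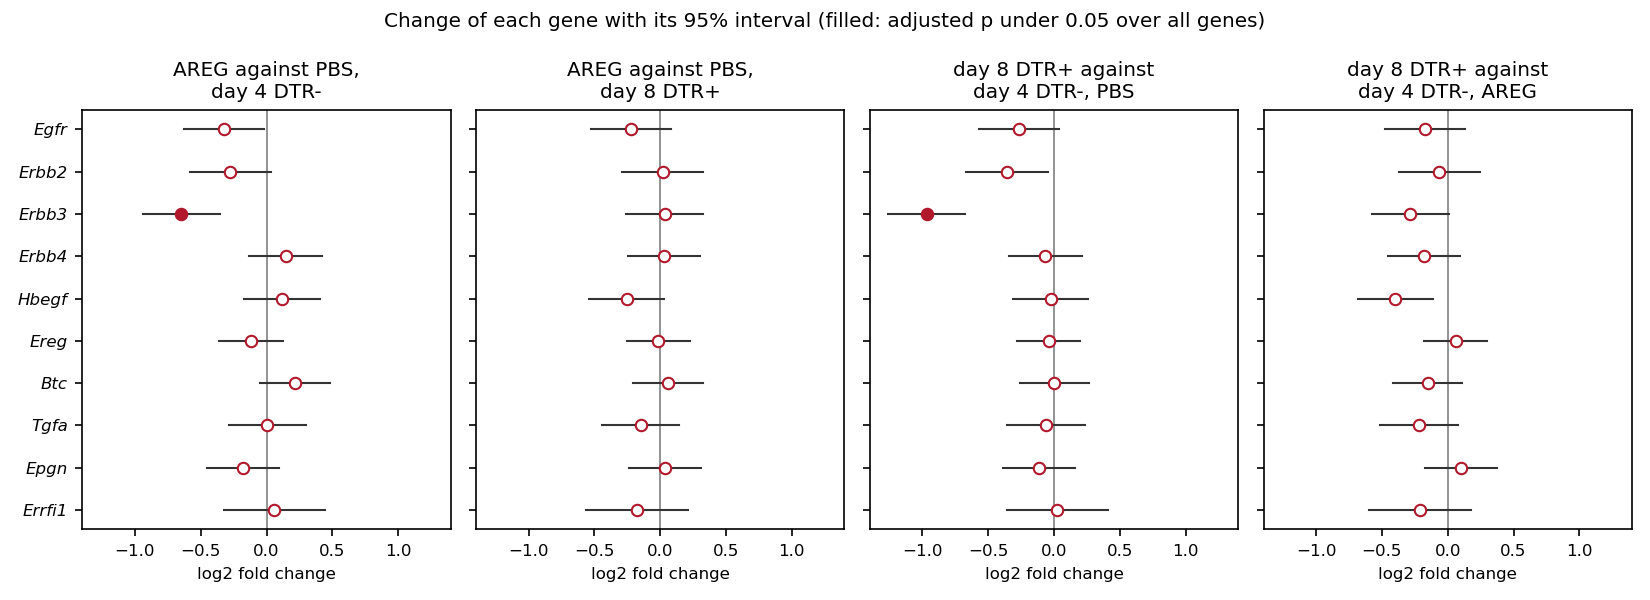
Log2 fold change (horizontal axis) of each gene (vertical axis) with its 95% interval in 4 comparisons; filled points have an adjusted p under 0.05 over all 19752 genes. Only Erbb3 is filled, at -0.65 for AREG at day 4 and at -0.97 between the PBS groups.

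Egfr, which binds AREG itself, had log2 intensities of 8.89, 9.10 and 9.28 in day 4 AREG muscle, against 9.26, 9.49 and 9.47 in day 4 PBS muscle. The highest AREG array stood just above the lowest PBS array, so the groups overlapped. The difference was -0.32 ± 0.14 (SE, 95% interval -0.62 to -0.02), with an unadjusted p of 0.0408 and an adjusted p of 0.265 in limma. At day 8 in Foxp3-DTR+ mice the values were 9.15, 8.97 and 8.63 with AREG, against 9.18, 9.20 and 9.04 with PBS. That difference was -0.22 ± 0.14 (adjusted p = 0.749), and AREG replicate 3 was the lowest of all 12 arrays. Without that array the day 8 difference was -0.08, and without AREG replicate 1 it was -0.34. The mean of both effects was -0.27 ± 0.10 (95% interval -0.49 to -0.06), with an unadjusted p of 0.0166 and an adjusted p of 0.153 in limma.

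By level, Egfr ran from day 4 PBS (9.41) to day 8 PBS (9.14), day 4 AREG (9.09) and day 8 AREG (8.91), and the steps between the PBS groups and between the AREG groups were not called. All 3 day 8 PBS arrays were below all 3 day 4 PBS arrays, with a change of -0.27 ± 0.14 (adjusted p = 0.458, limma).

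Erbb2, the partner receptor without a ligand, had log2 intensities of 7.52, 7.55 and 7.44 in day 4 AREG muscle, against 7.60, 8.17 and 7.56 in day 4 PBS muscle. The groups did not overlap, but most of the distance came from PBS replicate 2, which was also the highest array for Erbb3. The difference was -0.27 ± 0.14 (adjusted p = 0.375), and it was -0.08 without that array. At day 8 Erbb2 averaged 7.44 ± 0.13 in AREG muscle and 7.42 ± 0.06 in PBS muscle (SD, n = 3 each), a difference of 0.02 ± 0.14 (SE, adjusted p = 0.982, limma). Day 8 PBS muscle was below day 4 PBS muscle by array, with a change of -0.36 ± 0.14 (unadjusted p = 0.026, adjusted p = 0.291, limma), and this was -0.16 without PBS replicate 2 of day 4.

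Erbb4, the neuregulin receptor with a working kinase, was dim, with log2 intensities of 5.62 to 6.10 over the 12 arrays. Of 1027 olfactory receptor genes, which muscle is not known to use, 95% had a mean log2 intensity under 6.25, and Erbb4, Ereg and Epgn did not exceed it. The other 7 genes did. Erbb4 averaged 6.05 ± 0.04 in day 4 AREG muscle and 5.90 ± 0.10 in day 4 PBS muscle (SD, n = 3 each). Its arrays did not overlap, and the difference of 0.15 ± 0.13 (SE) had an adjusted p of 0.678 in limma.

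Over the 12 arrays Erbb2 and Erbb3 had a Pearson correlation of 0.85, and 0.84 after group means were removed. Egfr and Erbb3 had 0.73, and 0.48 after group means were removed. Egfr and Erbb2 had 0.61 and 0.33 in the same way. These describe arrays that share group differences and the quality of each RNA, and carry no test. The 3 genes whose pattern was most like that of Erbb3 in a set of 9487 genes with a level not under the median were Fads3, of the fatty acid desaturase family, with a correlation of 0.98 over 12 arrays, Ltbp2, a latent TGF-beta binding protein of the matrix, with 0.98, and the matrix protein gene Fbln2, with 0.97. With AREG at day 4 Fads3 differed by -0.64, Ltbp2 by -0.80 and Fbln2 by -0.67 on the log2 scale. These arrays were among those that chose the 3 genes, so the values are a description with no test.

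Of the ligand genes, Hbegf encodes HB-EGF, which is also the natural cell-surface receptor of diphtheria toxin in primates, and the receptor used to make mouse cells sensitive is a primate form of it. Hbegf had log2 intensities of 8.03, 8.27 and 8.51 in day 8 Foxp3-DTR+ AREG muscle, against 8.65, 8.37 and 8.54 in day 8 Foxp3-DTR+ PBS muscle. The 2 lowest of all 12 arrays were AREG arrays, and the groups overlapped. The difference was -0.25 ± 0.13 (SE, 95% interval -0.54 to 0.03, adjusted p = 0.694, limma), and -0.13 without AREG replicate 1. At day 4 the values were 8.51, 8.80 and 8.69 with AREG, against 8.60, 8.45 and 8.59 with PBS, a difference of 0.12 ± 0.13 (adjusted p = 0.765), which was 0.20 without AREG replicate 1 and 0.05 without AREG replicate 2.

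Between the AREG groups, Hbegf was lower at day 8 in Foxp3-DTR+ mice (8.27 ± 0.24) than at day 4 in Foxp3-DTR- mice (8.67 ± 0.15, SD, n = 3 each). The change of -0.40 ± 0.13 had an unadjusted p of 0.00952 and an adjusted p of 0.27 in limma. It was the smallest p of the 10 genes in that comparison, in which 0 of the 10 were called in limma, against 0.719% of all genes, and 1 had an unadjusted p under 0.05, against 10.3%. Between the PBS groups Hbegf averaged 8.52 ± 0.14 in Foxp3-DTR+ muscle and 8.55 ± 0.09 in Foxp3-DTR- muscle (SD, n = 3 each), a difference of -0.03 ± 0.13 (SE). Whether the probes of this cluster read the transgene was not tested.

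Tgfa, the gene of TGF-alpha, had log2 intensities of 8.38, 7.87 and 7.91 in day 4 AREG muscle, against 8.06, 8.02 and 8.07 in day 4 PBS muscle. AREG replicate 1, the array that stood apart above, was its highest value. The difference was 0.01 ± 0.14 (adjusted p = 0.991, limma), and it was -0.16 without that array (adjusted p = 0.533). At day 8 Tgfa averaged 7.84 ± 0.19 in AREG muscle and 7.99 ± 0.01 in PBS muscle (SD, n = 3 each), a difference of -0.15 ± 0.14 (SE, adjusted p = 0.823), which was -0.07 without AREG replicate 2 and -0.26 without AREG replicate 3. All 3 day 8 PBS arrays lay below all 3 day 4 PBS arrays, by 0.06 in the means.

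Btc, the gene of betacellulin, had log2 intensities of 6.55, 6.26 and 6.54 in day 4 AREG muscle, against 6.34, 6.01 and 6.35 in day 4 PBS muscle. In both groups replicate 2 was the lowest. Btc was dim, with a mean of 6.31 over the 12 arrays, close to the olfactory receptor level of 6.25. Its PBS groups averaged under that level, at 6.23 at day 4 and 6.24 at day 8. The difference was 0.22 ± 0.12 (95% interval -0.05 to 0.48, adjusted p = 0.432, limma), the largest positive difference of the 10 genes at day 4, and it was 0.10 without PBS replicate 2. At day 8 it was 0.06 ± 0.12 (adjusted p = 0.935). Within groups Btc ran against Erbb3 (Pearson correlation -0.82 over 12 arrays) and against Erbb2 (-0.79), a description with no test.

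Ereg and Epgn, the genes of epiregulin and epigen, stayed at the level of olfactory receptor genes on these arrays. Ereg lay between 5.68 and 5.98 over the 12 arrays and Epgn between 5.49 and 5.89, in log2 intensity. Epgn averaged 5.60 ± 0.05 in day 4 AREG muscle and 5.77 ± 0.08 in day 4 PBS muscle (SD, n = 3 each) without overlap, a difference of -0.18 ± 0.13 (SE, 95% interval -0.45 to 0.10, adjusted p = 0.578, limma). Ereg differed by -0.12 ± 0.11 in the same comparison (95% interval -0.36 to 0.13, adjusted p = 0.716). A missed threshold does not show that either gene was unaltered.

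Errfi1 (also called MIG6), which EGFR signalling induces and which blocks the receptor's kinase, had log2 intensities of 9.08, 9.35 and 9.95 in day 8 AREG muscle, against 9.78, 9.62 and 9.51 in day 8 PBS muscle. The AREG group held both the lowest and the highest of all 12 arrays. The difference was -0.18 ± 0.18 (SE, 95% interval -0.56 to 0.21, adjusted p = 0.844, limma). It was -0.42 without AREG replicate 3 and 0.01 without AREG replicate 1, so that the array left out set its size and its sign. At day 4 Errfi1 averaged 9.67 ± 0.06 in AREG muscle and 9.61 ± 0.23 in PBS muscle (SD, n = 3 each), a difference of 0.06 ± 0.18 (SE, 95% interval -0.33 to 0.45, adjusted p = 0.932), and this was -0.07 without PBS replicate 1.

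Counted without a test, the day 4 AREG and PBS arrays did not overlap in 4 of the 10 genes, against 22.3% of all genes: Erbb4 was higher with AREG, and Erbb2, Erbb3 and Epgn were lower. At day 8 0 of the 10 genes separated, against 14.2% of all genes. Between the PBS groups 4 genes were lower at day 8 without overlap (Egfr, Erbb2, Erbb3 and Tgfa), against 14.2% of all genes, and 0 were higher, against 9.17%. Between the AREG groups 0 of the 10 separated, against 13.2% of all genes.

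Markers of some other cell types moved over the same arrays as Erbb3, and their part in the result was not tested. With AREG at day 4, 0 of 9 fibro-adipogenic progenitor (stromal cell), 0 of 10 endothelial and 0 of 9 keratinocyte markers were called. Over all genes the share was 2.90%. Median log2 changes of these 3 lists were -0.06, 0.23 and 0.12, beside 0.04 over all genes. Of the 12 satellite cell and myoblast markers, 3 fell with AREG at day 4: Myog, a differentiation factor of myoblasts, by 1.10 ± 0.21, the fusion protein gene Mymk by 1.31 ± 0.23 and the integrin gene Itga7 by 0.71 ± 0.15 on the log2 scale (adjusted p = 0.0198, 0.0198 and 0.027, limma), against 2.11% of all genes that fell, and 0 rose. By sign 9 were lower and 3 higher, and of the higher ones Chodl, a membrane lectin gene, differed by 0.48 ± 0.21 (adjusted p = 0.24) and Calcr, the calcitonin receptor gene, by 0.21 ± 0.12 (adjusted p = 0.417). The summed log2 intensity of the list ranged from 13.4 to 13.5 in day 4 AREG muscle and from 13.7 to 13.9 in day 4 PBS muscle; the intermediate filament gene Des, which mature fibres also use, averaged 12.92 and 12.91 there and made up much of these sums. Between the PBS groups 5 of the 12 fell, against 1.15% of all genes, and 0 rose, with sums of 13.4 to 13.5 at day 8. Above the level of olfactory receptor genes stood 11 of the 12.

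Of the 10 neuromuscular junction genes, 3 acetylcholine receptor subunit genes fell with AREG at day 4: Chrna1 by 1.10 ± 0.24, Chrnd by 0.84 ± 0.21 and Chrng, the fetal subunit, by 1.28 ± 0.22 on the log2 scale (adjusted p = 0.0314, 0.0458 and 0.0198, limma), against 2.11% of all genes that fell, and 0 rose. By sign 6 were lower and 4 higher. Chrne, the adult subunit, had log2 intensities of 9.11, 8.72 and 8.90 in day 4 AREG muscle, against 8.55, 8.26 and 8.59 in day 4 PBS muscle. It was higher with AREG without overlap and not called (0.44 ± 0.18, unadjusted p = 0.0249, adjusted p = 0.205, limma). Musk, Dok7 and Lrp4, whose products assemble the synapse, differed by 0.12 ± 0.19, 0.11 ± 0.12 and 0.15 ± 0.12, and were not called. Of the lower genes that were not called, Chrnb1 averaged 8.97 in day 4 AREG muscle and 9.36 in day 4 PBS muscle, without overlap. Rapsn averaged 8.05 and 8.20, and Colq 7.64 and 7.81, in the same order. The summed log2 intensity of the list was 11.9 to 12.2 in day 4 AREG muscle and 12.2 to 12.6 in day 4 PBS muscle. Chrna1, Chrnd and Chrng also fell between the PBS groups, against 1.15% of all genes, with sums of 11.6 to 11.9 at day 8. Chrne differed there by 0.50 ± 0.18 in the opposite direction (adjusted p = 0.21, limma). All 10 were above the level of olfactory receptor genes.

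Schwann cells, which depend on ERBB3, were read by 7 of 10 listed markers, the others not being analysed here. Of these 0 were called in any of the 6 comparisons (limma), and 1 had an unadjusted p under 0.05 for AREG at day 4, against 17.0% of all genes. Their median log2 change with AREG at day 4 was 0.20, and their summed log2 intensity was 9.64 to 9.84 in day 4 AREG muscle and 9.50 to 9.68 in day 4 PBS muscle. Only 5 of the 7 were above the level of olfactory receptor genes. Macrophage markers fell with AREG at day 4 in 7 of 10, against 2.11% of all genes, and 0 rose, with summed log2 intensities of 11.56 to 11.95 in AREG muscle and 12.57 to 13.06 in PBS muscle, whereas between the PBS groups 0 of 10 were called in limma and 1 had an unadjusted p under 0.05, against 13.1% of all genes.

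**Figure D3:**
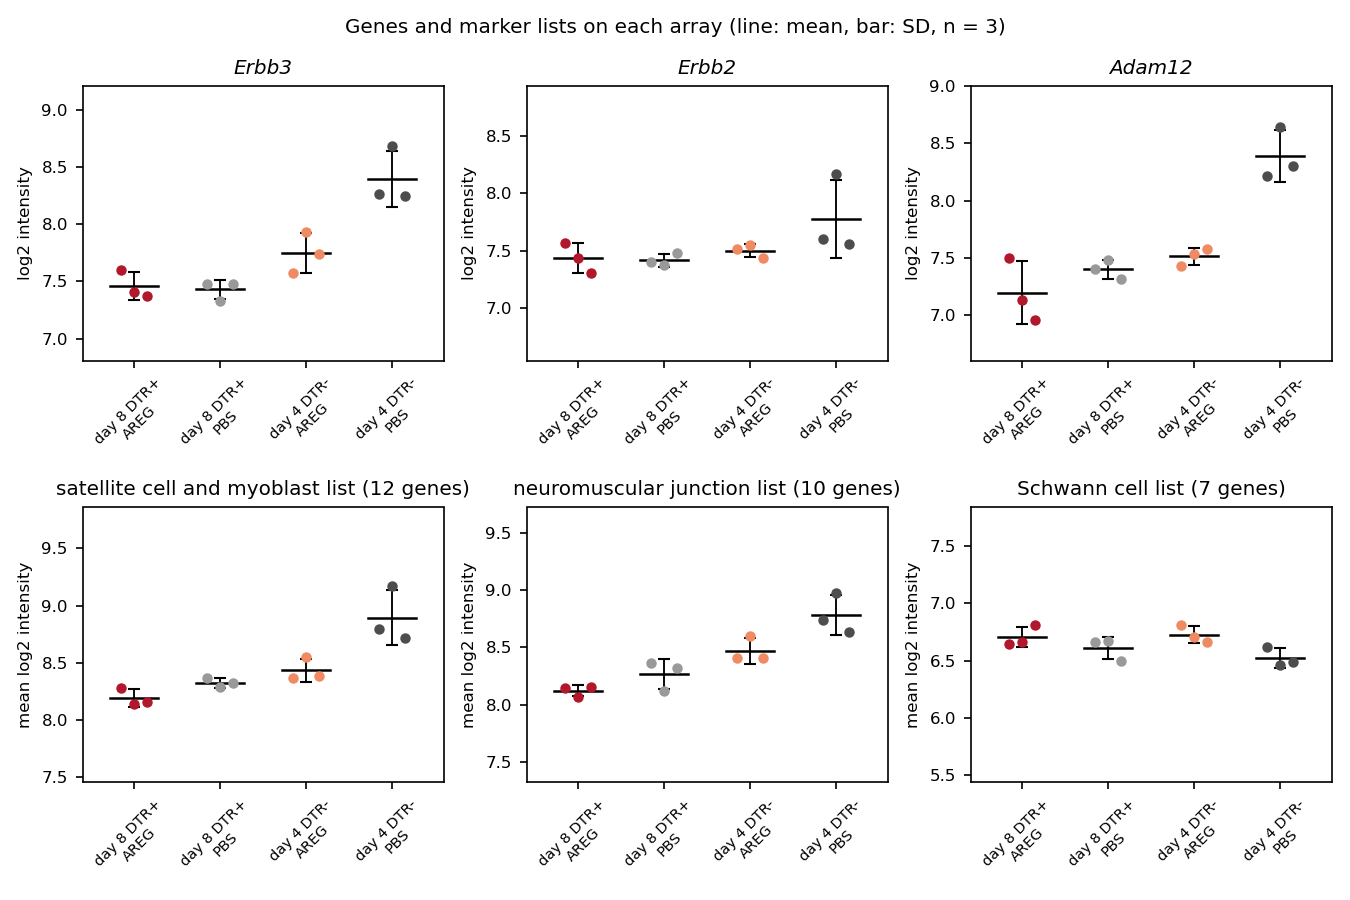
Log2 intensity of Erbb3, Erbb2 and Adam12, and the mean log2 intensity of 3 marker lists (vertical axes), on each array by group (horizontal axis); the line is the group mean and the bar its SD (n = 3). Day 4 PBS replicate 2 is the highest array for Erbb3 (8.68), Erbb2 (8.17) and Adam12 (8.64). It is also the highest for the satellite cell and myoblast list (9.17) and the neuromuscular junction list (8.98). For the Schwann cell list it is the lowest (6.46).

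The other genes of the pathway were taken by role. Of the 5 remaining ligand genes measured, Egf and the neuregulins Nrg1, Nrg2, Nrg3 and Nrg4, 0 were called in any comparison (limma), and only Egf and Nrg2 stood above the level of olfactory receptor genes. Nrg4, a ligand of ERBB4, had log2 intensities of 5.67, 5.98 and 5.78 in day 4 AREG muscle, against 5.21, 5.35 and 5.39 in day 4 PBS muscle. The groups did not overlap, and the difference of 0.50 ± 0.13 had an unadjusted p of 0.002 and an adjusted p of 0.0571 in limma. Egf differed by 0.24 ± 0.12 at day 4 (adjusted p = 0.333) and by 0.19 ± 0.12 at day 8 (adjusted p = 0.749).

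The neuregulin genes whose products bind ERBB3 did not pass either. Nrg1, whose protein acts on Schwann cells and on the synapse, averaged 6.18 ± 0.16 in day 4 AREG muscle and 6.34 ± 0.18 in day 4 PBS muscle (SD, n = 3 each), a difference of -0.16 ± 0.14 (SE, adjusted p = 0.689, limma). Between the PBS groups Nrg1 averaged 5.93 ± 0.22 at day 8 and 6.34 ± 0.18 at day 4, a difference of -0.41 ± 0.14 (adjusted p = 0.206). Nrg2 differed by -0.21 ± 0.11 with AREG at day 4 (adjusted p = 0.356) and Nrg3, a ligand of ERBB4, by 0.11 ± 0.19 (adjusted p = 0.865).

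Of 8 genes for cutting and trafficking the ligands, Adam12, a metalloprotease that can release HB-EGF and that regenerating fibres and activated stromal cells make, was the 1 called for AREG at day 4, against 2.90% of all genes. Its log2 intensities were 7.43, 7.54 and 7.58 in day 4 AREG muscle, against 8.22, 8.64 and 8.30 in day 4 PBS muscle. The groups were apart by more than the spread of either. Adam12 fell by 0.87 ± 0.15 on the log2 scale (SE, adjusted p = 0.0192, limma). The call ended without AREG replicate 1 (adjusted p = 0.0654), AREG replicate 3 (adjusted p = 0.0668) or PBS replicate 2 of day 4 (adjusted p = 0.139). At day 8 it averaged 7.20 ± 0.28 in AREG muscle and 7.40 ± 0.08 in PBS muscle (SD, n = 3 each). The mean of both AREG effects was -0.54 ± 0.10 (adjusted p = 0.0191), and the change between the PBS groups was -0.99 ± 0.15 (adjusted p = 0.00144). The call for the mean ended without AREG replicate 1 (adjusted p = 0.0574) or PBS replicate 2 (0.0703) of day 4, or without PBS replicate 1 (0.0522) or 3 (0.0526) of day 8.

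Of 25 adaptor and Ras-ERK-PI3K relay genes, 20 were measured, and the others were not analysed here. With AREG at day 4 only Akt1, the kinase downstream of PI3K, was called among them, against 2.90% of all genes. Akt1 had log2 intensities of 9.30, 9.75 and 9.59 in day 4 AREG muscle, against 10.1, 10.4 and 10.0 in day 4 PBS muscle. It fell by 0.59 ± 0.14 (SE, adjusted p = 0.0392, limma), and the call ended when arrays were centred on their medians (adjusted p = 0.0517). It also ended without AREG replicate 1 (adjusted p = 0.106), AREG replicate 3 (0.118), PBS replicate 1 (0.0709) or PBS replicate 2 (0.246) of day 4, and without AREG replicate 2 (0.0552), PBS replicate 1 (0.0547) or PBS replicate 2 (0.0543) of day 8.

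For the mean of both AREG effects 2 of the 20 fell, against 2.99% of all genes, and 0 rose. Shc1, the adaptor that couples receptors to Ras, averaged 7.67 ± 0.16 in day 8 AREG muscle and 8.28 ± 0.22 in day 8 PBS muscle, and 8.12 ± 0.24 in day 4 AREG muscle and 8.53 ± 0.03 in day 4 PBS muscle (SD, n = 3 each). The groups did not overlap at either day, and the mean effect was -0.51 ± 0.10 (SE, adjusted p = 0.0199, limma). Nras, a Ras protein gene, changed by -0.39 ± 0.09 (adjusted p = 0.0308). The call of Shc1 ended without AREG replicate 1 (adjusted p = 0.0574) or PBS replicate 2 (0.0712) of day 4, or without PBS replicate 1 (0.0542) or 3 (0.0629) of day 8. That of Nras ended without the same 4 arrays (0.0682, 0.102, 0.0798 and 0.0889), without AREG replicate 3 of day 4 (0.0541), and without AREG replicate 2 (0.0595) or 3 (0.056) of day 8. Of 13 genes listed as restraining the receptors, 0 were called in any comparison (limma). For AREG at day 4, 5 of them had an unadjusted p under 0.05, against 17.0% of all genes. The median log2 change at day 4 was -0.27 in the list for cutting and trafficking, 0.01 in the relay and -0.11 in the restraining genes, beside 0.04 over all genes.

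**Figure D4:**
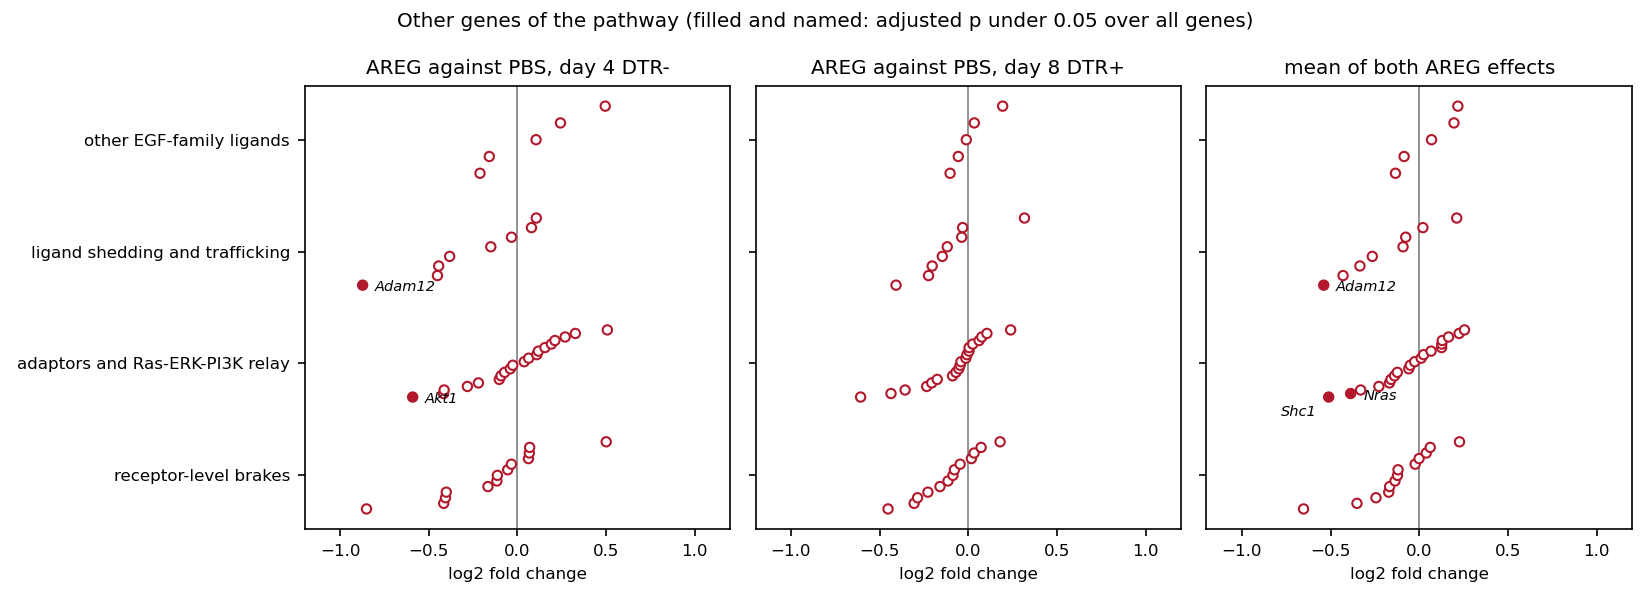
Log2 fold change (horizontal axis) of the other genes of the pathway, 1 point a gene, in 4 lists (vertical axis) for AREG against PBS at day 4, at day 8 and for the mean of both; filled and named points have an adjusted p under 0.05 over all genes. Adam12 (-0.87) and Akt1 (-0.59) are filled at day 4, 0 genes at day 8, and Adam12, Shc1 and Nras for the mean.

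The fall of Erbb3 in the PBS groups was called under each of the 23 alternatives run, with log2 changes of -1.06 to -0.82. Its fall with AREG at day 4 was called under 19 of the 23. Both tallies include settings that cannot move the log2 change. Some of these leave out an array of a group not compared, or average the clusters of a gene, where Erbb3 has 1. Others are the fit of the compared arrays alone, the trend and robust eBayes options, the filters on dim genes and the replicate block. Such settings can change only the adjusted p, so both tallies overstate how far the log2 change was tested. The call for AREG at day 4 ended without AREG replicate 1, AREG replicate 3 or PBS replicate 2 of day 4. It also ended without the day 4 arrays numbered 1 of both groups.

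**Figure D5:**
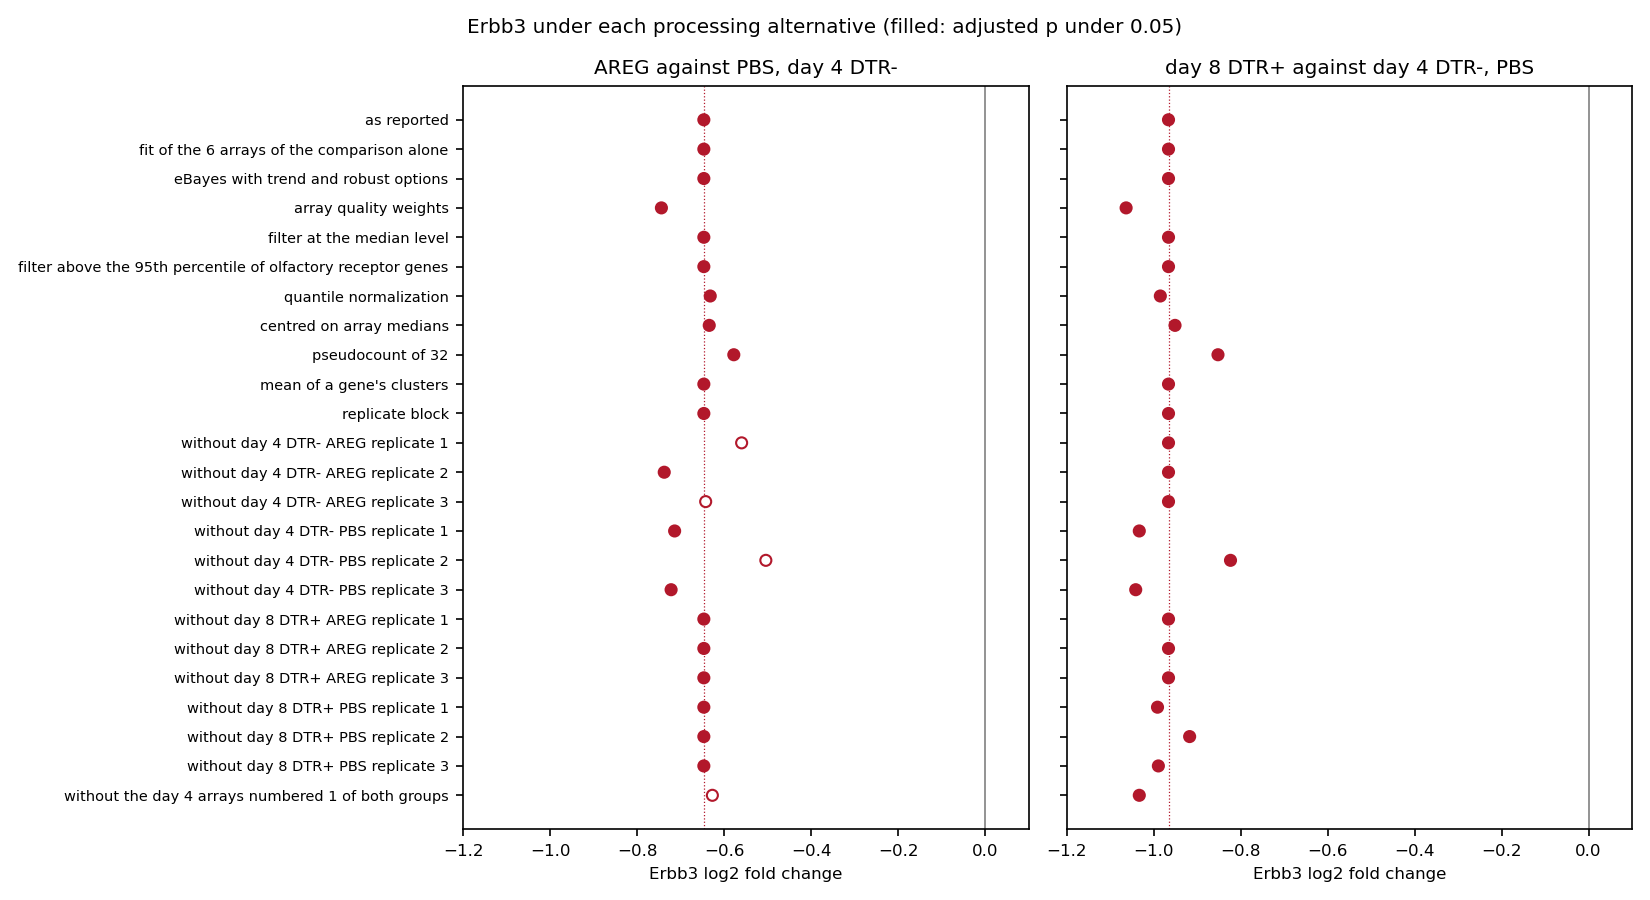
Erbb3 log2 fold change (horizontal axis) as reported and under each processing alternative (vertical axis); filled points have an adjusted p under 0.05. All points lie below 0, from -0.74 to -0.50 for AREG at day 4 with 4 open points, and from -1.06 to -0.82 between the PBS groups with 0 open.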

How the data were processed

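The deposited values are RMA intensities on a linear scale (4.65 to 21512.5), made by the authors with Affymetrix Power Tools and RMA, per the submitters' processing notes; RMA equalises arrays and can compress differences of dim genes. Of versions and annotation, nothing is given in the sources used here. Of 24922 clusters, 21425 had 1 gene symbol, 1399 several and 2098 no entry in the platform's gene table; genes with several clusters took the brightest. Values were taken to log2 without a pseudocount or filter and fitted with limma 3.58.1 in R 4.3.3 as 4 group means, with 8 residual and 7.1 prior degrees of freedom, all tests being two-sided; the fit was tested on simulated data. With 3 arrays on each side an exact permutation p is at least 0.1, so none was used.

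The members, gene lists, tests and alternatives were chosen with earlier results of these data known. Named were all members, the remaining ligand genes, up to 4 called genes per pathway list and comparison, the 3 genes most like a called member (ribosomal, predicted, Rik and olfactory receptor genes left out), and markers beside a result. Promoter entries of 7 of the 10 members were scanned. Erbb3 and Ereg had no entry, and Hbegf was not scanned. Residuals of AREG and PBS arrays with the same replicate number correlated at 0.558, 0.201 and 0.511 at day 4. At day 8 they correlated at -0.198, 0.123 and -0.003. Every same-number correlation exceeded 0.1 at day 4, but AREG replicate 2 correlated more with PBS replicate 3 (0.27) than with PBS replicate 2. The labels name no pairs, so whether equal numbers mark pairs was not settled, and the main fit used no block. The replicate block was an alternative, as were a fit of 6 arrays alone, trend and robust eBayes, array weights, filters on dim genes, quantile normalization, median centring, a pseudocount of 32, cluster means and leaving out arrays.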

Additional observations from a re-analysis of the deposited data

How the results depend on the processing

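Array quality weights were 0.167 for AREG replicate 1 of day 4, 5.52 for AREG replicate 3 of day 4 and 7.43 for AREG replicate 2 of day 8. Each AREG group thus leaned mostly on 1 array. With these weights more of the 10 genes were called: 3 for AREG at day 4, 1 for AREG at day 8, 4 when both effects were averaged, 2 when they were subtracted, 2 between the PBS groups and 8 between the AREG groups. The same weights called 5305, 1192, 4902, 2232, 1649 and 6676 of all 19752 genes, in that order. With the replicate block 1 was called for the mean effect, and the block changed no other call on the 10 genes. Leaving out 1 array at a time gave 0 to 1 members called for AREG at day 4 and Erbb3 changes of -0.74 to -0.50. Without the day 4 arrays numbered 1 of both groups, an alternative chosen after seeing the data, 0 members were called for AREG at day 4 and Erbb3 was at -0.63 (adjusted p = 0.136). The cause was not tested. Calls over all genes ranged from 0 (without those arrays) to 5305 (array weights), against 573 as reported, for AREG at day 4; from 0 to 1192, against 1, at day 8; from 25 to 4902, against 673, for their mean; from 0 to 2232, against 0, for their difference; from 209 to 1649, against 463, between the PBS groups; and from 54 to 6676, against 142, between the AREG groups, each highest value with array weights. With the block the mean effect had 1104 calls and AREG at day 8 had 0. Of 60 member values 58 were not called; 18 of these passed under at least 1 alternative and 20 changed sign under at least 1. The number of arrays, 3 a group, limits every value.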

Other observations

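Among the genes that restrain the receptors, chosen after their values were seen, Lrig1, a membrane protein that promotes the breakdown of ERBB receptors, differed by 0.50 ± 0.13 in log2 intensity with AREG at day 4 (SE of the fit, n = 3 per group, unadjusted p = 0.00157, adjusted p = 0.052, limma), and the receptor-type phosphatase gene Ptprj by -0.85 ± 0.25 (adjusted p = 0.0755). Lrig3 of the same family as Lrig1 was at -0.40 ± 0.13 (adjusted p = 0.105). None of the 3 passed the test.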
